A study of Mus musculus with 8 samples.

Results

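Adventitial fibroblasts are the stromal cells of the connective tissue sleeves around the larger vessels and airways of the lung. Their members here were the cells that the deposited cell table names adventitial fibroblasts, 1403 of 41106 cells from the right lungs of 8 mice. Each mouse was 1 unit, and its level of a gene was the mean over its cells of transcripts per 10000. Alveolar fibroblasts (2014 cells) and peribronchial fibroblasts (252 cells) of the same mice were used for comparison.

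Fibroblasts of the adventitia surround bronchovascular bundles with nerves, lymphatic vessels and resident immune cells. They make fibrillar collagens, decorin and hyaluronan, secrete chemokines and complement proteins, and are marked in several organs by the secreted protease inhibitor Pi16. Because they export much matrix, they depend on the chaperones, disulfide isomerases and glycosylation enzymes that fold secreted proteins in the endoplasmic reticulum.

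All 8 mice were C57BL/6 Sftpc-CreERT2-mTmG littermates, in which tamoxifen switches a fluorescent reporter from red to green in cells that use the Sftpc promoter, the surfactant protein C promoter of alveolar type II cells. Transcripts of the switched reporter, eGFP, were read in adventitial fibroblasts at 1.19 per 10000, above the 0.412 of the unswitched tdTomato, with 71.2 and 0.0574 in alveolar type II cells. This was not particular to adventitial cells. In alveolar fibroblasts eGFP stood at 3.77 against 1.18 for tdTomato, and in peribronchial fibroblasts at 4.89 against 1.77. In B cells eGFP was the lower, at 0.447 against 0.570. Both groups were given tamoxifen at 8 to 10 weeks of age. The 4 CS mice then inhaled the smoke of research cigarettes (cigarette smoke, CS) for 6 h per day, 5 days per week over 10 months, and the 4 RA mice stayed in room air (RA). Lungs were taken the day after the last exposure and digested with collagenase and elastase, and leukocytes carrying CD45 were sorted out and added back as a minor fraction, so that shares are given only among CD45- types or among fibroblasts.

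Each mouse gave 1 droplet library of 3' transcript ends with unique molecular identifiers (UMIs), of 34417120 to 50439134 UMIs in CS and 31882952 to 55485617 UMIs in RA. Each of 4 sequencing lanes held 1 CS and 1 RA mouse. The female-specific transcript Xist and the Y-linked Ddx3y went against the labelled sex in all 4 CS libraries and matched it in all 4 RA libraries. Xist stood at 8.41 and 8.79 in CS mice 1 and 2, labelled male, and Ddx3y at 2.23 and 3.01 in CS mice 3 and 4, labelled female. The CS and RA labels were not checked by any transcript in this way. No cell barcode of the adventitial fibroblasts occurred in 2 libraries (0 shared barcodes, against 197 among all cells).

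The name of the cells held for the markers fixed for them. Averaged over mice, Pi16 stood at 5.77 transcripts per 10000 in adventitial fibroblasts against 0.0309 in alveolar fibroblasts, and the next type, labelled NG, stood at 1.98. Decorin (Dcn), a proteoglycan that binds collagen fibrils, stood at 76.6 against 37.5 in mesothelium, 13.4 in peribronchial fibroblasts and 0.359 in alveolar fibroblasts. Serpinf1, a secreted inhibitor of new vessel growth, stood at 5.47, with 0.234 in the next type. The cells were clustered on these genes, so the levels are a description and were not tested.

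Other genes listed for these cells were less specific. Of 18 listed besides the markers, 8 were highest in adventitial fibroblasts and 10 were higher in another type, among them Cd34 (4.07, against 7.70 in a capillary endothelial type), Il33 (1.88, against 4.92 in alveolar type II cells), Igfbp6 (14.4, against 52.6 in mesothelium) and Ackr3 (1.01, against 4.93 in venous endothelium). Dpp4 and Sfrp2, known for such cells elsewhere, were near 0 here, at 0.129 and 0.0338, against 3.88 and 6.33 in mesothelium. The most specific genes, chosen by the ratio to the next type, included Scara5 and Ccl11. The ferritin receptor Scara5 stood at 2.34, with 0.0566 in the next type, smooth muscle. Ccl11, the eosinophil chemokine eotaxin, stood at 4.66, with 0.372 in the next type, smooth muscle. The actin-severing protein gelsolin (Gsn) was shared more widely, at 249 in adventitial and 127 in alveolar fibroblasts. Npnt, a matrix protein of alveolar fibroblasts, stood at 1.63 in adventitial cells against 14.5 in alveolar fibroblasts.

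Adventitial fibroblasts were counted in every mouse, with 110, 257, 116 and 121 cells in CS mice 1 to 4 and 347, 215, 168 and 69 cells in RA mice 1 to 4. They made up 60.4, 39.2, 39.9 and 29.6% of fibroblasts in CS and 36.1, 33.1, 45.4 and 46.0% in RA. The groups overlapped throughout, with means of 42.3% ± 13.0 and 40.2% ± 6.53 (SD, n = 4 each, two-sided p by exact permutation = 0.829). Among CD45- types the share was 4.19% ± 1.89 in CS and 4.87% ± 0.937 in RA (SD, n = 4 each, exact permutation p = 0.629). Neither share of cells differed beyond the spread between mice.

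The depth of the cells overlapped between the groups. The median adventitial fibroblast held 12473, 8022, 8515 and 9742 UMIs in CS mice and 9639, 8551, 9794 and 13187 UMIs in RA mice, and the exact permutation p was 0.571 (n = 4 each). The median share of mitochondrial transcripts was 0.926% ± 0.278 in CS and 0.863% ± 0.133 in RA (SD, n = 4 each, exact permutation p = 0.743).

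Fewer cells held a transcript of Pi16 after smoke. With every cell thinned to 2000 UMIs, Pi16 was found in 38.0, 38.7, 38.6 and 31.6% of the cells of CS mice and in 51.8, 48.0, 41.9 and 42.4% of those of RA mice. The groups did not overlap, with means of 36.7% ± 3.43 and 46.0% ± 4.74 (SD, n = 4 each, two-sided p by exact permutation = 0.0286, the smallest that 4 against 4 mice can give). Alveolar fibroblasts and B cells, which should lack the gene, held it in at most 3.5% of cells at the same depth. Within lanes the exact permutation p was 0.125, the smallest that 4 pairs allow, it was 0.0571 without thinning and 0.0857 at 1000 UMIs, and without CS mouse 4 it was 0.0857.

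**Figure D1:**
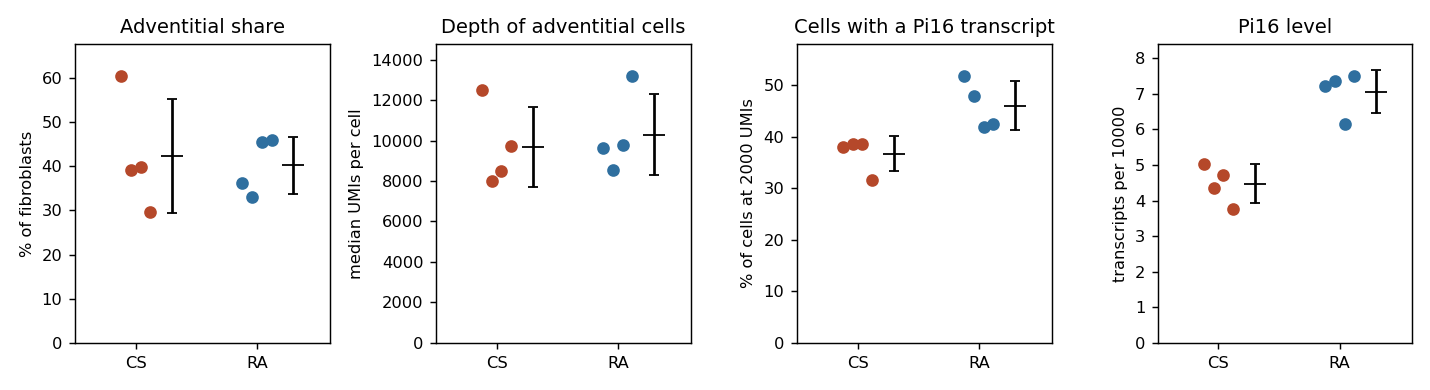
Adventitial fibroblasts in each mouse: their share of fibroblasts (%), the median number of UMIs per cell, the share of cells thinned to 2000 UMIs with a Pi16 transcript (%) and the Pi16 level (transcripts per 10000), with a point per mouse and the mean ± SD of the 4 CS and the 4 RA mice. Share and depth overlapped between the groups, while the Pi16 share lay between 31.6 and 38.7% in CS and between 41.9 and 51.8% in RA.

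The level of Pi16 (chr17:29317680-29330593, build GRCm38) was 5.04, 4.36, 4.73 and 3.77 transcripts per 10000 in CS mice and 7.21, 7.36, 6.16 and 7.5 in RA mice. Every CS mouse lay below every RA mouse, and the level fell by 0.56 on the log2 scale (SE 0.116, limma adjusted p = 0.0356). This and all further log2 values are differences of log2(level + 1), which understates the change of genes of low level. The call held in 8 of 21 alternatives. It was lost, among others, with the lane as a block (limma adjusted p = 0.104), without cells that held any Ptprc, Pecam1, Epcam or Sftpc transcript (0.217), with span centring, described below (0.0531), with cells thinned to 2000 UMIs (0.0583), and, for all mice but RA mouse 3, when 1 was left out (up to 0.0846). Dcn (68.7 ± 8.21 in CS, 84.4 ± 6.82 in RA) and Serpinf1 (4.86 ± 1.09 and 6.08 ± 1.79; SD, n = 4 each) had limma adjusted p of 0.128 and 0.431.

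Across the transcriptome, 9519 genes that reached 10% of adventitial fibroblasts in CS or in RA were tested with limma, with Benjamini-Hochberg adjustment at 0.05. In CS, 181 genes were higher (1.90% of those tested) and 112 were lower (1.18%). Without adjustment 2139 genes, 22.5%, had p under 0.05. The 4 CS and 4 RA mice did not overlap for 1336 genes, 14.0%, and for 291 of the 293 called, so that a lack of overlap adds little to a call. The median log2 difference over all genes tested was 0.00455. The list counts below are read against these shares and this median. The lists were chosen with earlier results of these data known, so an excess over these shares is a description only.

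The number of calls changed when single mice were left out and when the lane was a block. Leaving out 1 mouse gave between 23 genes (without RA mouse 4) and 188 genes (without RA mouse 3), and with the lane as a block 16 genes passed, 15 of them among the 293. The direction of each of the 293 genes was the same in every other limma fit in which it was tested. In most of these fits it could hardly be otherwise. The terms for lane and sex are balanced between the groups and leave the difference as it was. Where the groups do not overlap, as for 291 of the 293, leaving out 1 mouse cannot turn the direction.

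Genes that were higher in CS were long. Their median genomic span, from the first to the last base of the gene in the annotation, was 154 kb, against 8.16 kb for the genes that were lower and 27.6 kb for all genes tested. Of the 3161 longest genes (48.7 kb and above) 155 were higher and 7 lower, and of the 3160 shortest (up to 15.5 kb) 7 were higher and 83 lower. The longest genes gave 37.1, 35.7, 35.4 and 37.6% of the transcripts of tested genes in CS mice and 31.4, 32.3, 33.9 and 30.8% in RA mice. The groups did not overlap (36.4% ± 1.07 and 32.1% ± 1.35, SD, n = 4 each, exact permutation p = 0.0286), and alveolar fibroblasts had 43.5% ± 0.587 and 38.1% ± 2.19 (SD, n = 4 each, exact permutation p = 0.0286). The counts held both spliced and unspliced transcripts. When each mouse was centred within 10 bins of gene span, an alternative chosen after seeing the data, 23 genes were higher and 47 lower, 61 of these 70 among the 293.

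**Figure D2:**
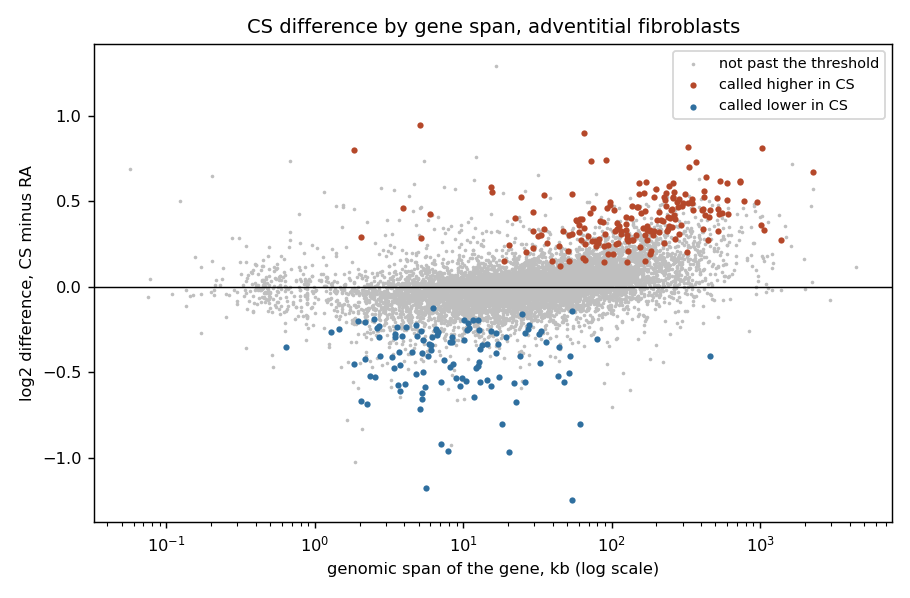
Log2 difference between CS and RA in adventitial fibroblasts (vertical axis) against the genomic span of the gene in kb (log axis), 1 point per tested gene, with genes past the limma threshold in colour. The genes called higher had a median span of 154 kb and those called lower 8.16 kb.

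The folding machinery of the endoplasmic reticulum was lower in CS. All 18 listed chaperones, isomerases and regulators of this compartment were tested, 12 fell (background 1.18% lower), 0 rose, and the median log2 difference was -0.54. All 18 differences were below 0, although 6 did not pass. With the lane as a block 6 of the 12 passed, with span centring 10 passed, and leaving out 1 mouse gave 7 (without RA mouse 4) to 11 calls.

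Manf (chr9:106838312-106891979) encodes a secreted protein held in the reticulum that is released under stress. Its level was 1.45, 1.91, 2.41 and 1.71 transcripts per 10000 in CS mice and 5.09, 5.95, 5.85 and 6.26 in RA mice. The highest CS mouse stood at less than any RA mouse by a wide margin, and the mean in CS was 0.323 of that in RA (log2 difference -1.25, SE 0.117, limma adjusted p = 0.00120, and 0.0175 with the lane as a block). Manf passed in all 21 alternatives fitted.

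Hspa5 (chr2:34771970-34777547), or BiP, is the main Hsp70 chaperone of the reticulum. Its level was 5.68, 7.17, 8.03 and 6.08 in CS mice and 16.2, 14.9, 16.6 and 18.1 in RA mice. The groups did not overlap, and the mean in CS was 0.410 of that in RA (log2 difference -1.18, SE 0.130, limma adjusted p = 0.00197, and 0.0353 with the lane as a block). Creld2, a disulfide isomerase-like protein, stood at 0.300, 0.458, 0.420 and 0.193 in CS mice and 1.11, 1.32, 1.66 and 2.19 in RA mice. It fell by 0.92 on the log2 scale (SE 0.115, limma adjusted p = 0.00391), again without overlap.

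Further kinds of member fell beside them. Among isomerases, Pdia6 stood at 2.30 ± 0.366 in CS and 4.77 ± 0.636 in RA (SD, n = 4 each, log2 difference -0.81, limma adjusted p = 0.00955), and Pdia4 fell by 0.53 on the log2 scale. Among lectin chaperones, calreticulin (Calr) stood at 4.45 ± 0.847 and 7.92 ± 0.920 (log2 difference -0.72, limma adjusted p = 0.0236), while calnexin (Canx) had a difference of -0.19 and did not pass. The co-chaperones Sdf2l1, Dnajb11, Dnajc3 and Hyou1 fell by 0.69, 0.56, 0.52 and 0.37. Hsp90b1 and the transcription factor Xbp1, which drives many of these genes, fell by 0.58 and 0.39. Pdia3 (-0.55), Atf4 (-0.27), Ddit3 (-0.22), P4hb (-0.16) and Herpud1 (-0.10) did not pass.

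**Figure D3:**
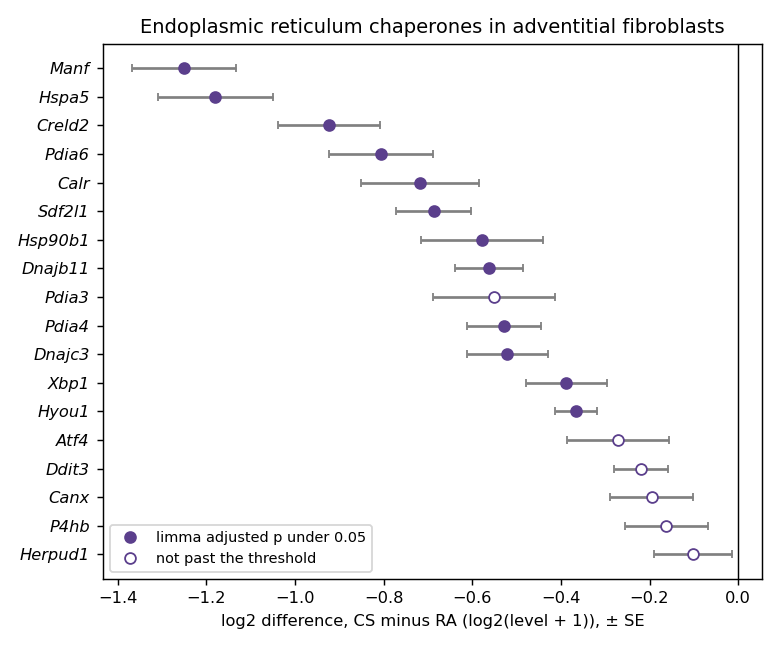
Log2 difference between CS and RA mice (± SE, horizontal axis) of the 18 listed endoplasmic reticulum chaperones and regulators in adventitial fibroblasts, filled where the limma adjusted p was under 0.05. The differences ran from -1.25 for Manf to -0.10 for Herpud1, and 12 of 18 passed.

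Many genes of this group share a control element, so their promoters are shown. The endoplasmic reticulum stress element, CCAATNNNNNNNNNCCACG, was searched on both strands in RefSeq windows from 250 bases before to 50 bases after each gene start (GRCm38.p6). It was in 39 of 32851 windows (0.119%) and in those of 7 of the 16 listed genes that had a window: Hspa5, Hsp90b1, Calr, Canx, Pdia6, Dnajc3 and Creld2. It overlapped no other motif searched (0 windows). The 200 bases before the start are given for 4 of them, 5' to 3' on the strand of the gene, with the fixed letters of the element in capitals. In Hspa5 (chr2:34771890-34772089, plus strand) and Pdia6 (chr12:17266389-17266588, plus strand) the element reads forward, 65 to 47 and 98 to 80 bases before the start. In Calr (chr8:84846932-84847131, minus strand) and Creld2 (chr15:88819446-88819645, plus strand) it reads in reverse, 162 to 144 and 126 to 108 bases before the start. The RefSeq starts of Hspa5, Pdia6 and Calr lie inside the GENCODE spans of these genes, so that these stretches overlap the spans, and in Hspa5 the element itself lies within it.
Hspa5: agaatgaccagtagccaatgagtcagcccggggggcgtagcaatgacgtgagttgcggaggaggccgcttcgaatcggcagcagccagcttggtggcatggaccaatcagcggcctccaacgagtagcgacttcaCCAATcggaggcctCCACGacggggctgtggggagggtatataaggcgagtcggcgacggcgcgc
Pdia6: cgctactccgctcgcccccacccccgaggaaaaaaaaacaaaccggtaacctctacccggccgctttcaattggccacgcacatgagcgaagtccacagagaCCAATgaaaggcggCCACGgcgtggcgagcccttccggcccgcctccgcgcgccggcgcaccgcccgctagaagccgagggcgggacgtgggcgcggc
Calr: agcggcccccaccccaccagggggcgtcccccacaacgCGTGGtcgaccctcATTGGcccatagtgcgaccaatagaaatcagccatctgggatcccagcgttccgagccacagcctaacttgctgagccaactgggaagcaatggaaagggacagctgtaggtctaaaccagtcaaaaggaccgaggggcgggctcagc
Creld2: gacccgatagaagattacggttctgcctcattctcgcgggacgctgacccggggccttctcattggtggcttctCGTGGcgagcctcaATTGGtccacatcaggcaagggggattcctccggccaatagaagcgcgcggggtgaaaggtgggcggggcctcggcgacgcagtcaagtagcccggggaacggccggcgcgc
A match is a description of these letters only. Manf and Hyou1 had no RefSeq window matched here. In Pdia3, Pdia4, P4hb, Sdf2l1, Dnajb11, Xbp1, Ddit3, Atf4 and Herpud1 the letters were not in the window.

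Beside the list, 5 genes of the secretory route are given that were in no list and were singled out after their values were seen, so that they say nothing of the route as a group. Slc35b1, which carries ATP into the reticulum, stood at 0.435 ± 0.0890 in CS and 1.11 ± 0.0421 in RA (SD, n = 4 each, log2 difference -0.56, limma adjusted p = 0.00197, and 0.0350 with the lane as a block). Ssr2, a subunit beside the translocation channel, fell by 0.47 on the log2 scale, the signal peptidase subunits Spcs2 and Sec11c fell by 0.56 and 0.33, and the cargo receptor Tmed9 fell by 0.40 (limma adjusted p between 0.00577 and 0.0236).

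The collagen chaperone of the reticulum, Serpinh1 or Hsp47, binds procollagen until it leaves for the Golgi. Its level was 6.46, 7.45, 5.69 and 4.70 in CS mice and 10.2, 11.4, 12.8 and 17.2 in RA mice. The groups did not overlap, and the mean in CS was 0.472 of that in RA (log2 difference -0.96, SE 0.169, limma adjusted p = 0.0214, and 0.0854 with the lane as a block). It was the 1 gene called among 22 tested for collagen processing, whose median was -0.04, and it was lost without CS mouse 4 or RA mouse 4.

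A further list held chaperones of the cytosol together with Hspd1 and Hspe1, which belong to mitochondria. Of its 20 tested genes 5 fell (background 1.18%), 0 rose, and the median was -0.20. The 5 calls became 2 with the lane as a block, with span centring or without cells holding other markers, and 2 to 3 with any 1 mouse left out. Fkbp4, an immunophilin that works with Hsp90, stood at 0.442 ± 0.0476 in CS and 1.09 ± 0.125 in RA (SD, n = 4 each, log2 difference -0.53, limma adjusted p = 0.00252). The small heat shock protein Hspb8 stood at 0.767 ± 0.114 and 1.58 ± 0.234 (log2 difference -0.55, limma adjusted p = 0.0101). Hsp90ab1, Stip1 and Cacybp fell by 0.59, 0.29 and 0.26 on the log2 scale, and Hspa1a and Hspa1b, the inducible Hsp70 pair, had differences of 0.30 and 0.58 that did not pass. The heat shock element, the units GAA, TTC and GAA with any 2 bases between neighbours, was in 198 windows (0.603%) and in 4 of 16 windows of this list (Hsph1, Hspd1, Hspe1 and Chordc1). None of these 4 genes passed the test, and no match says only that these letters are not in this window.

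Has1 makes hyaluronan, the large sugar polymer of loose connective tissue. It (chr17:17843323-17855205) stood at 1.52, 1.28, 2.13 and 2.48 in CS mice and 4.54, 3.2, 2.69 and 3.33 in RA mice. The groups met without overlap, the lowest RA mouse being just above the highest CS mouse (log2 difference -0.64, SE 0.151, limma adjusted p = 0.0429, and 0.0995 with the lane as a block). Averaged over mice, Has1 stood at 2.65 in adventitial fibroblasts, 1.86 in mesothelium, 0.848 in peribronchial fibroblasts and 0.0668 in alveolar fibroblasts.

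Has2, another synthase, did not pass (log2 difference -0.20, limma adjusted p = 0.0858). The enzymes for the sugar nucleotides that the synthases join were in no list. Ugdh (chr5:65413221-65435949), which makes UDP-glucuronic acid, stood at 1.95, 2.49, 1.80 and 2.62 in CS mice and 4.72, 3.60, 3.80 and 4.38 in RA mice, without overlap (log2 difference -0.67, SE 0.115, limma adjusted p = 0.0186). Uap1, which makes UDP-N-acetylglucosamine and was singled out after its values were seen, stood at 1.91 ± 0.279 and 2.98 ± 0.385 (SD, n = 4 each, log2 difference -0.45, limma adjusted p = 0.0405). With the lane as a block the limma adjusted p was 0.0732 for Ugdh and 0.112 for Uap1. Of 18 proteoglycan and hyaluronan genes tested, Has1 alone was called, and the median was 0.00274. Has1 passed in 8, Ugdh in 14 and Uap1 in 7 of 21 alternatives.

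Of the other genes listed for adventitial fibroblasts, not all of which were highest in them, 15 were tested, 3 fell (Gsn, Has1 and Ackr3), 0 rose, and the median was -0.18. Gsn stood at 215, 220, 188 and 198 in CS mice and 340, 288, 242 and 301 in RA mice, without overlap (mean in CS 0.700 of that in RA, log2 difference -0.51, SE 0.0943, limma adjusted p = 0.0236). The other listed genes, among them Ccl11 (-0.18), the mucin-like stem cell antigen Cd34 (-0.23), the alarmin Il33 (-0.01) and Col14a1 (0.16), did not pass, and none of this list passed with the lane as a block. The 3 calls became 0 without CS mouse 4, RA mouse 1 or RA mouse 4 and 1 without CS mouse 1, 2 or 3 or RA mouse 2, and Gsn passed in 12 of 21 alternatives. Markers of alveolar fibroblasts, summed within adventitial cells, ranged from 39.4 to 51.4 in CS and 37.3 to 46.5 in RA, a sum carried by Inmt. Of its 9 tested members 1, Ces1d, rose, 8 differences were above 0, 4 had unadjusted p under 0.05 (background 22.5% in either direction), and the median was 0.18. Ces1d is not particular to alveolar fibroblasts, at 5.035 there against 12.87 in ciliated, 9.57 in club, 9.17 in basal and 5.95 in goblet cells. It passed in 8 of 21 alternatives. The call was lost with the lane as a block, without cells holding other markers, with span centring and with any 1 mouse left out. Npnt stood at 2.08 ± 0.515 in CS and 1.18 ± 0.284 in RA and Itga8 at 2.14 ± 0.564 and 1.17 ± 0.238 (SD, n = 4 each, limma adjusted p = 0.0542 and 0.0521). The part of these genes in the fall of Pi16 was not tested.

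Spon2, a secreted spondin of the matrix (chr5:33198184-33218455), was in no list and was among the 3 largest falls past the threshold. Its level was 0.356, 0.627, 0.575 and 0.762 in CS mice and 2.32, 2.91, 1.54 and 1.69 in RA mice. Every RA mouse lay above every CS mouse, and the mean in CS was 0.274 of that in RA (log2 difference -0.96, SE 0.129, limma adjusted p = 0.00544, and 0.0353 with the lane as a block).

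Among the higher genes were 2 targets of hedgehog signalling. Hedgehog proteins made by epithelium bind the receptor Ptch1 on stromal cells, and the freed pathway turns on Gli1, Ptch1 itself and Hhip, a surface protein that traps the ligand. Ptch1 (chr13:63508328-63573598) stood at 2.92, 1.82, 2.46 and 2.05 in CS mice and 0.749, 0.865, 0.780 and 0.679 in RA mice. Each CS mouse was above each RA mouse, and the mean was 3.01 times that in RA (log2 difference 0.90, SE 0.0989, limma adjusted p = 0.00197, and 0.0279 with the lane as a block). Ptch1, like Manf, passed in all 21 alternatives.

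Hhip (chr8:79965851-80058006) stood at 2.03, 1.75, 0.801 and 1.08 in CS mice and 0.362, 0.373, 0.415 and 0.513 in RA mice. The groups did not overlap, although CS mice 3 and 4 were nearer to RA (mean 3.40 times that in RA, log2 difference 0.74, SE 0.135, limma adjusted p = 0.0236). It did not pass with the lane as a block (limma adjusted p = 0.0661), with span centring (0.0528) or without cells holding markers of other types (0.0949). Hhip is chiefly a peribronchial gene, at 45.8 in peribronchial fibroblasts, and the other 4 peribronchial markers listed (Aspn, Lgr6, Fgf18 and Cdh4) together reached 0.699 to 1.15 in the adventitial cells of CS mice and 0.543 to 1.23 in those of RA mice, overlapping. The part of peribronchial cells in the result was not tested.

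The transcription factors of the pathway, Gli1, Gli2 and Gli3, had log2 differences of 0.17, 0.26 and 0.15 and did not pass (limma adjusted p = 0.165, 0.0537 and 0.205). Of 21 Wnt, BMP and hedgehog genes tested, 3 rose (Ptch1, Hhip and Bmp5 at 0.41; background 1.90% higher), 0 fell, and the median was 0.15. The 3 calls became 1 with the lane as a block, with span centring, without cells holding other markers and without CS mouse 2 or RA mouse 1, 2 or 4. The Gli site GACCACCCA was in 83 windows (0.253%) and in 0 of the 13 windows of this list.

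**Figure D4:**
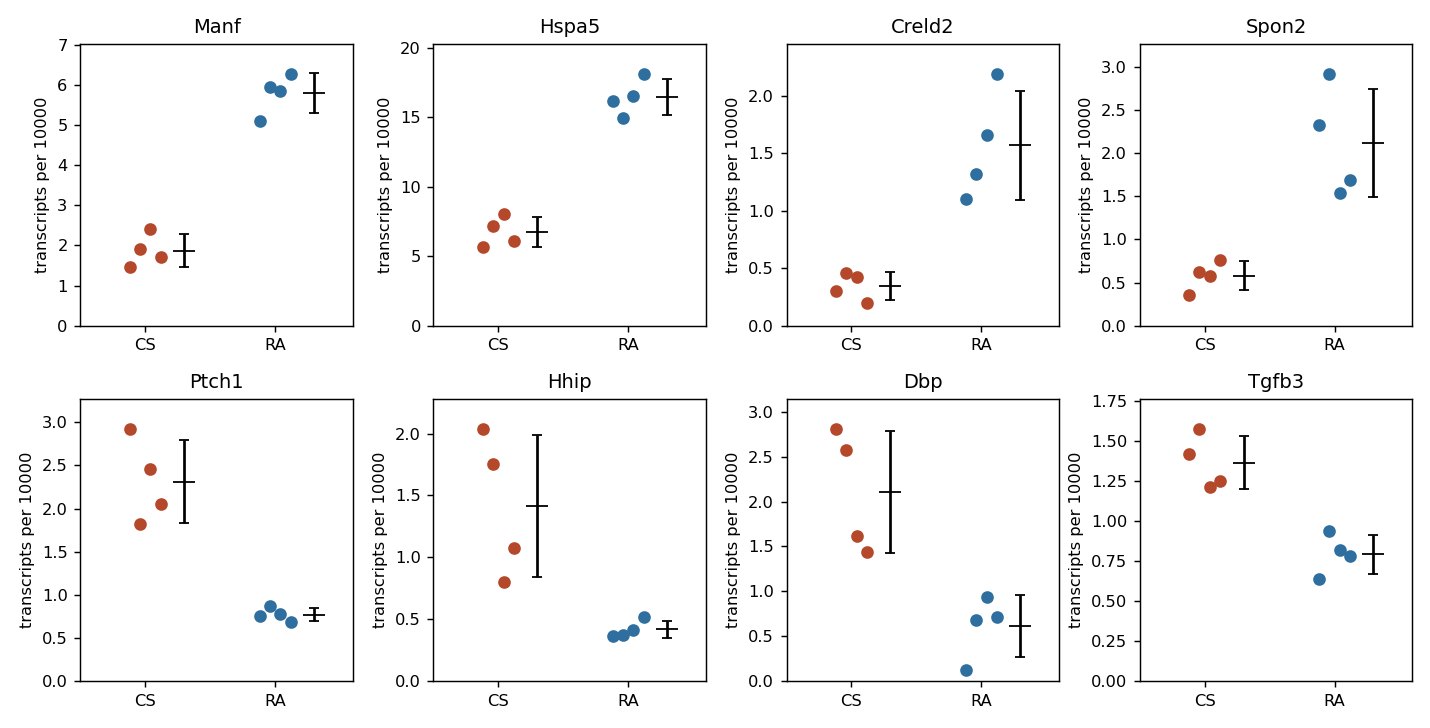
Levels (transcripts per 10000) of Manf, Hspa5, Creld2, Spon2, Ptch1, Hhip, Dbp and Tgfb3 in the adventitial fibroblasts of each mouse, with the mean ± SD of the 4 CS and the 4 RA mice. The groups did not overlap for any of the 8 genes, with CS lower for the first 4 and higher for the last 4, as in 291 of the 293 called genes.

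Ligands and receptors for growth factors mostly did not pass, with 4 exceptions that rose among 23 tested (background 1.90% higher), 0 that fell and a median of 0.11. Tgfb3, a transforming growth factor beta, stood at 1.42, 1.57, 1.21 and 1.25 in CS mice and 0.637, 0.936, 0.817 and 0.782 in RA mice. It was higher in each CS mouse (log2 difference 0.40, SE 0.0758, limma adjusted p = 0.0250), and it alone of the 4 was called with span centring. Tgfb2, the neuregulin Nrg1 and the insulin-like growth factor receptor Igf1r rose by 0.39, 0.33 and 0.47 on the log2 scale. None of the 4 passed with the lane as a block, without cells holding other markers, or without CS mouse 2, CS mouse 4, RA mouse 1 or RA mouse 4. Fibrillar collagens numbered 7, with 0 called, a median of 0.32 and limma adjusted p of 0.404 for Col1a1 and 0.292 for Col3a1.

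Among the 10 largest rises past the threshold were Slit2 and Unc5c. Slit2, a secreted ligand of Robo receptors, stood at 7.93, 7.31, 4.79 and 6.32 in CS mice and 2.66, 3.30, 4.14 and 3.06 in RA mice. The lowest CS mouse was close above the highest RA mouse (mean 2.0 times that in RA, log2 difference 0.82, SE 0.151, limma adjusted p = 0.0236). It passed in 9 of 21 alternatives and was lost, among others, with the lane as a block (limma adjusted p = 0.0808), with span centring (0.0527), without cells holding other markers (0.0561) and without RA mouse 4 (0.0700). Unc5c, a netrin receptor, stood at 4.56 ± 0.790 in CS and 2.34 ± 0.337 in RA (SD, n = 4 each, log2 difference 0.73, limma adjusted p = 0.0173).

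Dbp, an output of the circadian clock, was the largest rise past the threshold. Cells keep daily time by a loop in which Arntl and Clock drive Per, Cry and Nr1d genes, which repress them, and the factors Dbp, Tef and Hlf carry the rhythm to other genes. Dbp stood at 2.81, 2.57, 1.61 and 1.44 in CS mice and 0.124, 0.675, 0.936 and 0.717 in RA mice. No RA mouse reached the lowest CS mouse, and RA mouse 1 was the lowest of all (mean 3.44 times that in RA, log2 difference 0.95, SE 0.174, limma adjusted p = 0.0236, and 0.0732 with the lane as a block).

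Of 10 output genes tested, 4 rose (Dbp, Tef at 0.52, Nr1d2 at 0.53 and Hlf at 0.54; background 1.90%), 0 fell, and the median was 0.43. Nr1d1 stood at 1.91, 1.86, 1.45 and 1.22 in CS and 0.215, 1.0, 0.849 and 0.988 in RA (limma adjusted p = 0.0537). All 10 differences were above 0, and those of the 5 tested genes of the opposite phase, among them Arntl (-0.31) and Clock (-0.11), were all below 0 with 0 called. With the lane as a block 0 of the 10 were called, without cells holding other markers 1 was, and without RA mouse 4 none was (0), and the hour at which each mouse was sampled is not given in the sources used here. The E-box CACGTG, which the clock pair binds, was in 2349 windows (7.15%) and in 4 of 9 windows of the list (Tef, Per1, Ciart and Bhlhe41), and the D-box TTATGTAA was in 308 windows (0.938%) and in 0 of 9.

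Of matrix and defence genes, few passed. Among 15 non-fibrillar collagens 2 rose, Col23a1 (1.18 ± 0.139 in CS, 0.692 ± 0.108 in RA; log2 difference 0.36, limma adjusted p = 0.0276) and Col16a1 (0.829 ± 0.119 and 0.481 ± 0.110; 0.30, limma adjusted p = 0.0420; SD, n = 4 each). Both calls were lost with the lane as a block, without cells holding other markers, with summed counts, with span centring and without CS mouse 1, CS mouse 4, RA mouse 1 or RA mouse 4. Of 23 matrix proteases and inhibitors 1 rose, Adamts10 (log2 difference 0.43, limma adjusted p = 0.0424, passing in 6 of 21 alternatives), and of 11 genes of p53 and senescence 1 fell, the cell death gene Bax (-0.26, limma adjusted p = 0.0486, passing in 3 of 21). None of 16 elastic fibre genes was called, with 0 in either direction. Complement C4b, of the classical pathway, stood at 8.34, 7.40, 10.5 and 9.96 in CS mice and 5.26, 5.12, 6.48 and 6.42 in RA mice, higher in each CS mouse (log2 difference 0.56, SE 0.135, limma adjusted p = 0.0477). It was the 1 of 10 complement genes called, and C3 had a difference of 0.39 (limma adjusted p = 0.127). C4b passed in 5 of 21 alternatives, and not with the lane as a block, without cells holding other markers, at 2000 UMIs, with summed counts, with span centring or with any 1 mouse left out.

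Few chemokine genes passed. Of 21 tested, 1 passed, Ackr3, a scavenging receptor for Cxcl12, at 0.702 ± 0.174 in CS and 1.31 ± 0.246 in RA (SD, n = 4 each, log2 difference -0.44, limma adjusted p = 0.0363), which passed in 11 of 21 alternatives and not with the lane as a block. Cxcl12 itself stood at 4.74, 6.17, 5.69 and 3.85 in CS mice and 4.17, 5.34, 5.97 and 3.72 in RA mice, overlapping throughout (limma adjusted p = 0.807). Cxcl1, a neutrophil chemokine, stood at 6.18 ± 3.15 and 13.8 ± 7.62 (SD, n = 4 each) and did not pass (limma adjusted p = 0.136). Of 25 immediate early genes, which dissociation also induces, 2 fell (Atf3 by 0.56 and Klf4 by 0.50), and the median was -0.23. Neither passed with the lane as a block, without cells holding other markers, or without CS mouse 1, 2 or 4 or RA mouse 1, 2 or 4. Tsc22d3, a glucocorticoid-induced gene, stood at 1.06 ± 0.0817 in CS and 2.7 ± 1.11 in RA (SD, n = 4 each, log2 difference -0.80, limma adjusted p = 0.0276), and was the 1 gene called of 10 on a list of the glucocorticoid receptor and its targets. It was lost with the lane as a block (0.0659) and without CS mouse 1, 2 or 4 or RA mouse 4.

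Antigen presentation set 1 CS mouse apart. The class I heavy chain H2-K1 stood at 4.97, 6.19, 27.5 and 7.21 in CS mice 1 to 4 and at 5.77, 6.38, 6.38 and 5.25 in RA mice. Its partner B2m stood at 8.73, 11, 29.6 and 12.2 and at 7.06, 8.80, 9.0 and 6.76. Among the other mice, H2-K1 ran from 4.97 to 7.21 in CS and from 5.25 to 6.38 in RA. B2m ran from 8.73 to 12.2 and from 6.76 to 9.0, with CS mice 2 and 4 above every RA mouse. CS mouse 3 was far above the rest for both genes. It held the highest level of the 8 mice for all 10 tested class I genes, all 6 class II genes and 12 of 18 interferon-response genes, against 12.9% of all genes tested. Of the 18 interferon-response genes 1 rose, Ifit3, and the median was 0.20. Ifit3 stood at 0.330, 0.346, 0.519 and 0.297 in CS mice and 0.112, 0.147, 0.199 and 0.0548 in RA mice, without overlap (log2 difference 0.28, SE 0.0562, limma adjusted p = 0.0303). It passed without CS mouse 3, and not with the lane as a block (0.0661), without cells holding other markers, or without CS mouse 1 or 2 or RA mouse 1, 2 or 4.

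The high level of this mouse was seen in adventitial cells and much less in alveolar fibroblasts of the same lung. There H2-K1 stood at 5.37 in CS mouse 3 and between 2.52 and 4.42 in the other 7 mice. The class II gene H2-Ab1, normally made by antigen-presenting cells, stood at 5.10 in the adventitial cells of this mouse and at most 0.258 in those of the others. The leukocyte gene Ptprc was found in 2.63% of its adventitial cells at 2000 UMIs and in 0 to 1.52% in the other mice, against 51.2 to 70.5% of B cells, and its part in the result was not tested. No class I or II gene was called (0 of 10 and 0 of 6), and without this mouse the log2 difference of H2-K1 was 0.03 instead of 0.53.

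Several gene groups often looked at after smoke had no call in either direction: 17 antioxidant genes with the factor Nrf2 itself, 10 glutathione transferases, 3 genes of the aryl hydrocarbon receptor, 79 ribosomal proteins and 74 nuclear subunits of oxidative phosphorylation, each with 0 genes past the threshold. Their medians were -0.07, -0.07, 0.14, -0.11 and -0.08. The cystine carrier Slc7a11 rose by 0.43 on the log2 scale (limma adjusted p = 0.0378). It was the 1 gene called of 6 tested for the integrated stress response (background 1.90% higher). The other 5 differences were below 0, 4 of them with unadjusted limma p under 0.05, and the median was -0.25. The ferritin chain Fth1 fell by 0.38 (limma adjusted p = 0.0394), the 1 called of 5 iron genes, whose median was -0.38. Of 37 proteasome genes 2, Psmc4 and Psmd8, fell by 0.32 and 0.25 (background 1.18% lower). Slc7a11 passed in 7, Fth1 in 4, Psmc4 in 11 and Psmd8 in 8 of 21 alternatives. None of the 4 passed with the lane as a block or with span centring, the call of Fth1 was lost whichever mouse was left out, and both proteasome calls were lost without cells holding other markers and without CS mouse 1, CS mouse 4, RA mouse 1 or RA mouse 4. Markers of other cell types were also read within adventitial cells. Summed epithelial markers ranged from 0.916 to 38.4 in CS and 0.196 to 32.6 in RA, endothelial ones from 2.36 to 3.21 and 2.48 to 5.42, and immune ones from 0.889 to 2.41 and 0.799 to 4.30, with overlapping ranges. Red cell genes summed to 0.271 to 0.771 in CS and 0.427 to 24.4 in RA, and Hbb-bs stood at 0.260 ± 0.179 and 7.56 ± 5.63 (SD, n = 4 each). All 3 tested endothelial markers had unadjusted limma p under 0.05 and lower means in CS, and Tmem100 fell by 0.29 on the log2 scale (limma adjusted p = 0.0445). Tmem100 passed in 8 of 21 alternatives, and not with the lane as a block, summed counts, 2000 UMIs per cell, span centring or any 1 mouse left out except CS mouse 3. The part of these markers in the other results was not tested. Without cells that held a transcript of Ptprc, Pecam1, Epcam or Sftpc, 62 genes were called (31 higher, 31 lower) in place of 293.

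To ask which differences belonged to the adventitia rather than to fibroblasts as a whole, the effect of CS was compared with that in alveolar fibroblasts of the same mice. The difference of effects passed for 6 of 9783 genes (0.0613%), and 800 had p under 0.05 without adjustment. The effect was the higher in adventitial cells for Ptch1, Txnip and Angptl4, and the lower for Ugdh, Spon2 and Sipa1l2. The count was 0 with the lane as a block, and leaving out 1 mouse gave 0 (without CS mouse 2 or 3) to 7.

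Ptch1 in alveolar fibroblasts stood at 1.16, 0.799, 0.935 and 0.953 in CS mice and 0.544, 0.754, 0.874 and 0.595 in RA mice, overlapping, where the adventitial cells had separated clearly. The effects differed by 0.68 (SE 0.0788, limma adjusted p = 0.0143). Spon2 stood at 0.198, 0.210, 0.316 and 0.307 and at 0.453, 0.443, 0.325 and 0.320 in alveolar cells, a small separation, and its effects differed by -0.83 (SE 0.111, limma adjusted p = 0.0203). Ugdh in alveolar cells stood at 1.62, 2.36, 2.03 and 2.10 in CS and 2.26, 1.81, 1.26 and 1.44 in RA, without the fall of the adventitia (difference of effects -0.85, SE 0.110, limma adjusted p = 0.0159).

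The other 3 genes differed in other ways. Txnip, which binds and inhibits thioredoxin, stood at 1.74, 1.92, 1.75 and 1.63 in adventitial cells of CS mice and 0.908, 1.07, 1.35 and 0.752 in those of RA mice, while alveolar cells overlapped at 3.21, 2.81, 2.78 and 3.19 and 3.12, 3.54, 4.57 and 3.26. Angptl4, an inhibitor of lipoprotein lipase, was lower in CS alveolar cells, at 0.686, 1.19, 1.24 and 1.54 against 4.10, 2.52, 3.37 and 3.72, and less so in adventitial cells. Sipa1l2, a regulator of Rap GTPases, was higher in CS alveolar cells, at 1.69, 2.15, 1.81 and 1.71 against 0.759, 0.963, 1.17 and 0.756, and overlapped between the groups in adventitial cells. The differences of effects were 0.66, 0.63 and -0.48 (limma adjusted p = 0.0159, 0.0143 and 0.0159).

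**Figure D5:**
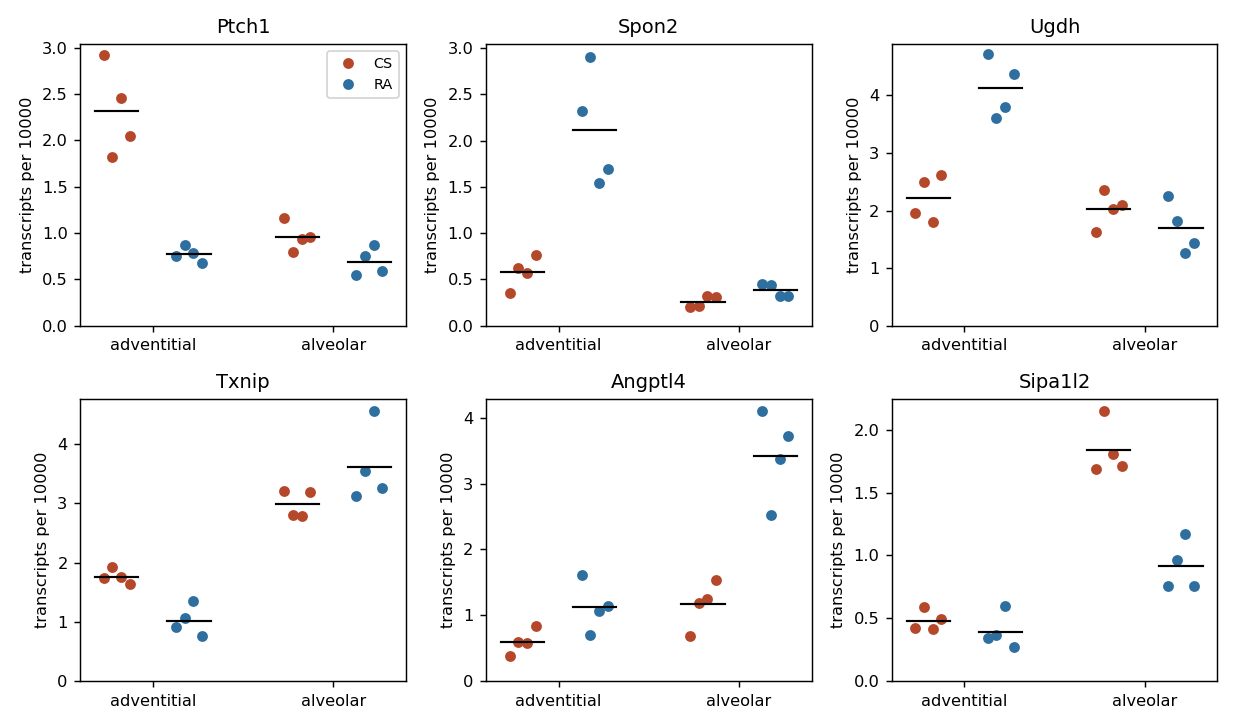
Levels (transcripts per 10000) of the 6 genes whose CS effect differed between adventitial and alveolar fibroblasts, 1 point per mouse and type, with a line at the mean of the 4 CS or 4 RA mice. Ptch1, Ugdh and Txnip separated in adventitial cells only, and Angptl4 and Sipa1l2 in alveolar cells only. Spon2 separated in both, narrowly in alveolar cells (at most 0.316 in CS, at least 0.320 in RA).

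No chaperone of the reticulum passed the test of a difference between the types. Manf stood at 0.784, 1.30, 1.69 and 1.17 in alveolar cells of CS mice and 4.06, 3.32, 2.86 and 2.56 in those of RA mice. Hspa5 stood there at 6.64, 7.36, 6.80 and 6.01 against 15.6, 11.3, 12 and 13.6, so that both genes separated in both types. The log2 differences in alveolar cells were -0.91 for Manf, -0.87 for Hspa5, -0.47 for Creld2, -0.83 for Pdia6, -0.82 for Calr and -0.95 for Serpinh1, and the difference of effects did not pass for any of these 6 genes. Pi16 could not be compared in the same way, since its alveolar level was near 0.

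Peribronchial fibroblasts, with at least 20 cells in 3 CS and 3 RA mice, were fitted together with the adventitial ones. By limma the difference of effects passed in 0 of 9461 genes, and 609 had p under 0.05 without adjustment. The peribronchial cells in this fit numbered 230. Without cells holding other markers, which left 1 CS and 2 RA mice, 13 genes passed.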

How the data were processed

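Single-cell RNA from 8 mouse lungs (4 CS, 4 RA) was counted by the authors with STARsolo (STAR 2.7.3a, GRCm38.p6), spliced and unspliced transcripts together, and corrected for free RNA, so that the deposited values are estimated counts (1.28% of values whole, tolerance 1e-06) of 33027 genes. The deposited cell table gives each cell's type, mouse and mitochondrial percent, as computed by the authors. Cell types were taken from that table as given, with 1025 multiplets and 7 cells of a cell cycle class left out of shares.

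Counts were scaled to 10000 per cell and averaged per mouse (Python 3.11.15, pandas 2.3.3, numpy 2.4.6). Genes detected in 10% or more of cells in CS or RA (mean of mouse shares) were compared on log2(mean + 1) with limma 3.58.1 (R 4.3.3, eBayes with trend), Benjamini-Hochberg at 0.05. A difference of effects was tested in the same way on each mouse's difference of log2 means between types. Shares and depths were compared with exact two-sided permutation tests (scipy 1.17.1). Scripts were tested on simulated data. A mouse entered a comparison of types with at least 20 cells of each. Gene positions and spans come from a GENCODE annotation of GRCm38, and promoter windows from RefSeq (GRCm38.p6).

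Members, lists and tests were chosen with earlier results of these data known. Named genes were drawn from the markers, the 10 largest changes past the threshold in each direction without overlap, the called, highest and smallest-p members of each list, genes the study names, and the largest differences of effects, and not every such gene is described. Mice are numbered in accession order, so numbers pair nothing. The lane pairs a CS with an RA mouse, and deviations of lane mates from their group means correlated at -0.168, -0.181, -0.0133 and -0.0744. Alternatives were another pseudocount and filter, lane or sex as terms, summed counts, quantile normalization, cells without markers of other types, thinning, single cells by Wilcoxon test, each mouse left out, and, added after seeing the data, sex by transcripts, span centring and limma without the trend.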

Additional observations from a re-analysis of the deposited data

Results flagged for a closer look

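Among the shares of adventitial fibroblasts with a Pi16 transcript, CS mouse 4 lay far from its group, at 31.6% against 38.0 to 38.7% in the other CS mice. CS mouse 3 lay far above its group for 8 genes of antigen presentation and the interferon response. Its levels were 27.5 for H2-K1, 27.3 for H2-D1, 29.6 for B2m, 5.10 for H2-Ab1, 0.957 for Tap1, 1.62 for Psmb9, 0.884 for Nlrc5 and 2.17 for Gbp2 (transcripts per 10000). In all, 84 groups of 4 mice were tested for a far sample and 9 had one. Chance gives about 1 in 20, the 8 genes were tested because the high mouse had been seen, and they are not independent of each other.

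For 6 genes the effect of CS differed between adventitial and alveolar fibroblasts in a test of the difference itself (limma on log2 differences, 4 CS and 4 RA mice). The effect in adventitial cells was the higher for Ptch1 (0.680), Txnip (0.659) and Angptl4 (0.628), and the lower for Ugdh (-0.852), Spon2 (-0.825) and Sipa1l2 (-0.483). No cause was tested.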

How the results depend on the processing

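The 293 genes called in adventitial fibroblasts became 478 where genes had to be found in 25% of cells, 13 with no filter, 16 with the lane as a replicate block, 62 without cells holding Ptprc, Pecam1, Epcam or Sftpc, 110 at 2000 UMIs per cell, 70 with span centring, 2 (Manf and Ptch1) with span centring and the lane block, and 950 by a Wilcoxon test over single cells with Bonferroni adjustment, which treats cells as replicates. Summed counts gave 227 (126 higher, 101 lower), quantile normalization 274 (149 higher, 125 lower), and leaving out 1 mouse 23 to 188. The cause was not tested, except that fewer mice or genes were in some fits. The 6 genes that differed from alveolar fibroblasts became 0 with a pseudocount of 0.1, with no filter, with the lane as a block (alone or with span centring) and without cells holding other markers, 3 with summed counts, and 0 to 7 with 1 mouse left out. Against peribronchial fibroblasts every alternative but 1 gave 0, leaving out a mouse (0 to 0) and the lane as a block (with 2 lanes of 1 mouse) included, and 13 passed (2 higher, 11 lower) without cells holding other markers, where 1 CS mouse, taken to vary like the others, stood against 2 RA mice. The Pi16 share differed by -9.30 percentage points, by -10.4 without thinning (exact p = 0.0571), by -7.10 at 1000 UMIs (exact p = 0.0857) and by -9.30 within lanes (exact p = 0.125), and by -10.7 to -7.38 with 1 mouse left out. The adventitial share of fibroblasts ranged from -3.94 to 6.34 points with 1 mouse left out and turned to -3.94 without CS mouse 1 and -0.226 without RA mouse 2. The share among CD45- types ranged from -1.47 to -0.150, and the median UMIs from -1530 to 360, above 0 without RA mouse 4. For single genes, the log2 difference of Dcn turned to 0.0426 under quantile normalization, that of Cxcl12 ranged from -0.0156 to 0.184 with 1 mouse left out, turning without RA mouse 4 and without CS mouse 2 (-0.00478), and that of H2-D1 from -0.121 (without CS mouse 3) to 0.596. Across the other settings 400 single-gene values kept their side of the threshold, 71 lost it and 3 gained it. With 1 mouse left out 247 kept it and 102 lost it. Counted over the lane block alone and the lane block with span centring, 38 values kept it and 50 lost it. Over all genes tested in adventitial fibroblasts, lane mates did not deviate together from their group means. This was not examined for single genes or for the differences of effects. Why calls were lost under the block was not tested. With 69 cells in RA mouse 4, genes of low level rest on few transcripts.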

Other observations

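Genes in no list also separated the groups, named here after their values were seen. Crip2, a LIM domain protein, stood at 1.58 ± 0.135 in CS and 3.07 ± 0.268 in RA, and the microtubule-bundling protein Tppp3 at 0.374 ± 0.0468 and 1.05 ± 0.216 (SD, n = 4 each; limma adjusted p = 0.00498 for both). Slc7a2, a carrier of cationic amino acids, stood at 0.430 ± 0.0822 in CS and 0.145 ± 0.0240 in RA (limma adjusted p = 0.0101). All 3 genes also passed with the lane as a block, at limma adjusted p of 0.0474, 0.0353 and 0.0493.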
